A study of Mus musculus with 12 samples.

Results

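Type 2 immunity and the alternatively activated state of macrophages were examined in injured mouse lungs through 10 genes, chosen by symbol from the 55414 genes of the expression table. Arg1, Chil3 and Retnla mark alternatively activated macrophages, Ccl11, Ccl24, Ccl17 and Ccl22 encode chemokines of type 2 immunity, Il33 encodes an epithelial alarmin, and Il1rl1 and Il4ra encode receptor chains. Whole-lung RNA was sequenced from 12 mice of a C57BL/6J background given 50 µg of Escherichia coli lipopolysaccharide (LPS), which causes acute lung injury (ALI), and taken on day 4. The 6 IL-10 B-KO mice came from a cross of Il10 flox/flox with mb1-Cre mice, in which Cre is made in the B cell lineage. The 6 IL-10 B-WT mice were the controls, and the lungs are called knockout and control lungs below. All 12 received LPS, so that no uninjured lung is among these values, and the age of the mice and the floxed or Cre alleles of the controls are not given in the sources used here.

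In type 2 immunity, IL-4 and IL-13 bind receptors that contain the IL-4 receptor alpha chain (Il4ra) and activate the transcription factor STAT6. Macrophages that receive this signal make arginase 1 (Arg1), the chitinase-like protein Ym1 (Chil3) and resistin-like molecule alpha (Retnla), and are known in the lung for roles in tissue repair, allergic inflammation and defence against helminths. IL-33 released from damaged epithelium acts through ST2 (Il1rl1) on innate lymphoid cells, mast cells and regulatory T cells, while the chemokines attract eosinophils through Ccr3 (Ccl11, Ccl24) and T helper type 2 cells through Ccr4 (Ccl17, Ccl22).

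The sequences below show where the start sites of 4 of these genes hold the spacing that STAT6 is known to prefer, TTC and its inverse GAA separated by 4 bases (TTCNNNNGAA), or the spacing of 3 bases (TTCNNNGAA) that other STAT proteins also bind. The 250 bases before each RefSeq start site on GRCm38.p6 were searched. Both patterns read the same on either strand, and no match of one overlapped a match of the other in these windows. RefSeq windows matched 7 of the 10 genes (9 windows), and Arg1, Ccl11 and Ccl24 had no window here. Capitals mark the matches, each printed 5′ to 3′ on the strand of its gene with 30 bases to either side where the window allowed.
Chil3, chr3:106167698-106167766, minus strand: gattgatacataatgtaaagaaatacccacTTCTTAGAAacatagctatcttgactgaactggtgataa
Retnla, chr16:48842434-48842503, plus strand: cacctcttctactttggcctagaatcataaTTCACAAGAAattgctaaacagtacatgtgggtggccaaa
Ccl17, chr8:94810269-94810392, plus strand: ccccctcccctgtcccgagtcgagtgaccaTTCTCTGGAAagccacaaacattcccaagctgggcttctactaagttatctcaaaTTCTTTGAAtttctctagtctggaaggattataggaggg
Il33, chr19:29925047-29925112, plus strand: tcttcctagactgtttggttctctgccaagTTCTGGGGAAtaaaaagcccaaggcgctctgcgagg

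The spacing of 4 bases was present in 3 of the 9 windows, beginning 145 bases before the start of Retnla, 154 before that of Ccl17 and 36 before the first of 2 starts of Il33, and in 5.85% of all 32851 mouse windows of this length. The spacing of 3 bases was present in 2 of the 9, beginning 172 bases before Chil3 and 99 before Ccl17, and in 7.02% of all windows. The windows of Ccl22, Il4ra and Il1rl1 and the second of Il33 held neither pattern. A match describes these letters only and was not tested as a site.

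The values are TPM (transcript abundances), in which reads are divided by gene length and each library is scaled to a common total. TPM therefore keep no sequencing depth, nothing shows how many reads stand behind a value, and the error given is the spread over the 6 lungs of a genotype. Differences between genotypes are log2 fold changes on the log2(TPM + 1) scale, knockout over control, which understate changes of genes with low TPM, and SE is their standard error. Higher or lower on average refers to the sign of this log2 difference, which for small differences can differ from that of the mean TPM. A gene was called at a limma adjusted p of at most 0.05 and a log2 fold change of 1 or more in either direction. Across the 15148 genes with at least 1 TPM in at least 6 lungs, 75 genes (0.495%) were called and the median log2 fold change was 0.10. By sign alone 63.2% of them were higher in knockout lungs, the share to set beside each count of higher genes below.

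A pair of lungs stood apart from the others of their genotype, and the limma tests of the 8 genes that passed the filter on low TPM are given with and without them. Control replicate 1 had 2479 TPM summed over 7 neutrophil markers and 2492 TPM over 10 monocyte and interstitial macrophage markers, against at most 1092 and 1088 TPM in the other control lungs. Knockout replicate 2 had 1041 and 430 TPM, against at least 1268 and 1606 TPM in the other knockout lungs. The B cell genes Cd79a and Jchain were called as lower in knockout lungs, and Cd79b, Ms4a1 and Ighm were lower on average with an unadjusted limma p of at most 0.05. Cd79a is the mb1 gene for which the Cre line is named, and the part of the Cre allele in its values was not tested. B cell genes placed both lungs with their labels, since Jchain was at least 32.0 TPM in every control lung and at most 2.96 TPM in every knockout lung. The lungs were picked because they lay against their group, so that leaving them out widens the differences in part by construction, and a p-value without them is a description and no independent evidence. The targeted gene Il10 was at most 0.88 TPM in control and 0.58 TPM in knockout lungs and did not separate the genotypes (exact permutation test, p = 0.745, n = 6).

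Of the 10 genes, 8 passed the filter on low TPM, 6 with a higher and 2 with a lower mean log2(TPM + 1) in knockout lungs, where 63.2% of all genes tested were higher. Of the 8, 0 were called (limma adjusted p from 0.298 to 0.979). In RNA of whole lung, a difference in the number of cells of a type and in the RNA of each cell cannot be told apart. Retnla, Arg1, Chil3 and Il33 had an unadjusted limma p of at most 0.05 with higher values in knockout lungs, where 6.83% of all genes tested did so, and Ccl22 had such a p with lower values, where 5.71% did so. The exact permutation test gave a p of at most 0.05 for 3 genes, Retnla, Arg1 and Ccl22. The genotypes overlapped for every one of the 10, while 1.02% of all genes tested did not overlap. Without control replicate 1 and knockout replicate 2, 5 of the 8 were called, all higher (Arg1, Chil3, Retnla, Il33 and Il4ra), and of the 14762 genes then tested 9.69% were called in either direction, 1043 of 1430 higher. An unadjusted limma p of at most 0.05 was then reached by 30.9% of all genes tested. The share of all genes that did not overlap without these lungs was not counted.

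**Figure D1:**
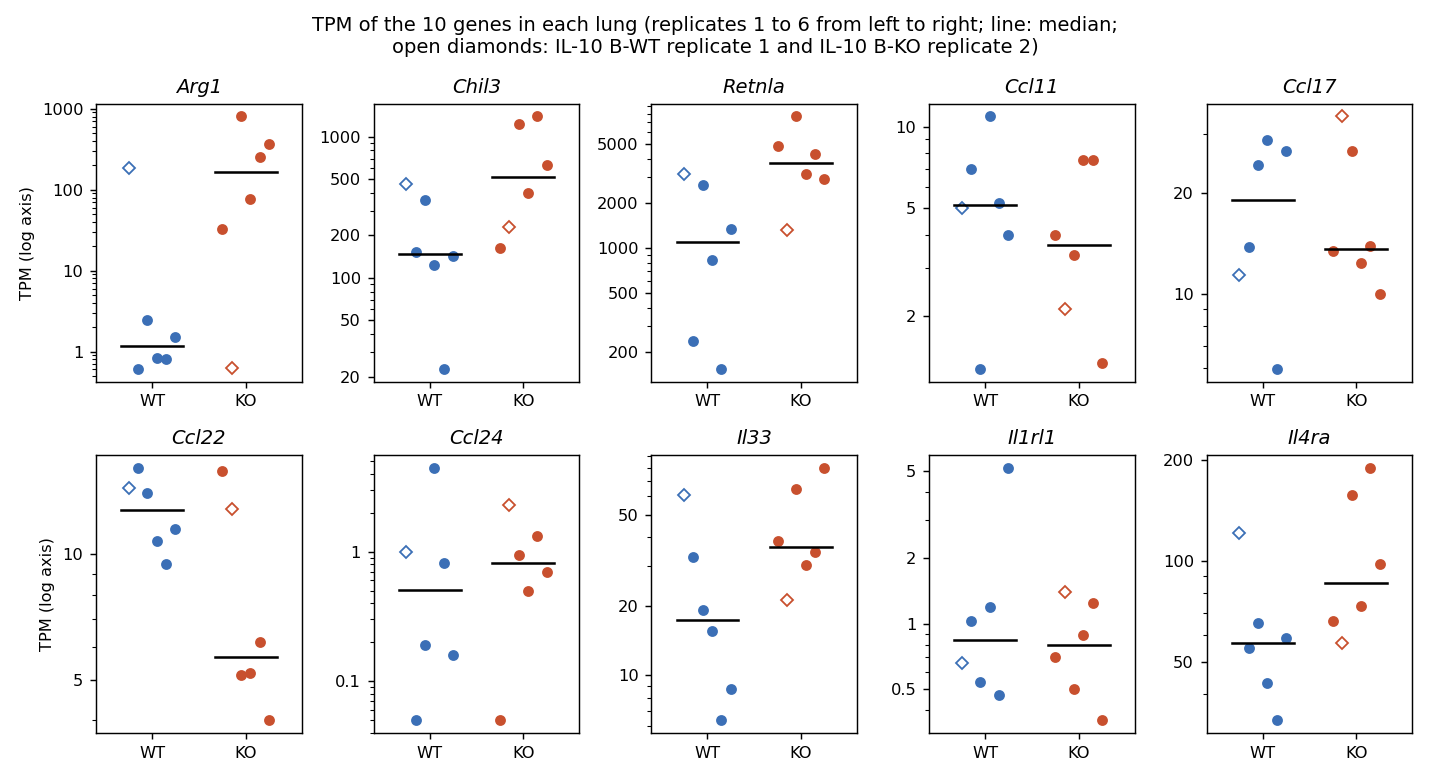
TPM of the 10 genes (log axis) in each lung, control (IL-10 B-WT) in blue and knockout (IL-10 B-KO) in orange, with the line at the median of 6 lungs and open diamonds for control replicate 1 and knockout replicate 2. Arg1 lay at or below 2.47 TPM in 5 control lungs and at or above 32.8 TPM in 5 knockout lungs, with the open diamonds on the opposite sides, and 4 knockout lungs lay below every control lung for Ccl22.

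Arg1 had the widest range of the 10 genes, from near absence to the level of abundant lung transcripts. Arg1 (ENSMUSG00000019987, chromosome 10, 24915221 to 24927484, minus strand, GRCm38) encodes the enzyme that splits arginine into ornithine and urea. It was at 183, 0.61, 2.47, 0.82, 0.81 and 1.5 TPM in control replicates 1 to 6 and at 32.8, 0.62, 808, 76.1, 253 and 364 TPM in knockout replicates 1 to 6. Apart from the diamonds of the TPM plot, the genotypes would not overlap, with 5 control lungs at 1.24 ± 0.765 TPM (SD, n = 5) and 5 knockout lungs at 307 ± 311 TPM (SD, n = 5). How many of all genes would not overlap without these lungs was not counted. Over all lungs the means were 31.5 ± 74.2 and 256 ± 305 TPM (SD, n = 6 each). The log2 fold change was 4.19 (SE 1.47, limma p = 0.0135, adjusted p = 0.308, exact permutation p = 0.0455, n = 6). Of the genes tested, 0.363% had a larger absolute log2 fold change. Without control replicate 1 the log2 fold change was 5.26 and Arg1 was called (adjusted p = 0.0391), and without both lungs it was 6.40 (adjusted p = 6.01e-04). Leaving out any other single lung gave adjusted p of up to 0.610.

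Retnla was the most abundant of the 10 genes in every lung. Retnla (ENSMUSG00000061100, chromosome 16, 48842551 to 48844461, plus strand) encodes a secreted protein made by alternatively activated macrophages and by airway and alveolar epithelium. It was at 3170.0, 237, 2669, 838, 155 and 1351 TPM in control replicates 1 to 6 and at 4875, 1328, 7691, 3160.3, 4294 and 2937 TPM in knockout replicates 1 to 6. By mean TPM it ranked 69th among all genes in control lungs and 26th in knockout lungs, and every knockout lung lay above the control median of 1095 TPM. The log2 fold change was 2.07 (SE 0.71, limma p = 0.0119, adjusted p = 0.298, exact permutation p = 0.0260, n = 6). Without both lungs that stood apart it was 2.74 (adjusted p = 0.0176), and the remaining 5 knockout lungs (lowest 2937 TPM) then lay above the remaining 5 control lungs (highest 2669 TPM). The share of all genes that separated in this way was not counted.

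Chil3 (ENSMUSG00000040809, chromosome 3, 106147554 to 106167564, minus strand) encodes Ym1, a chitinase-like protein of alveolar and alternatively activated macrophages and of some neutrophils. It was at 460, 153, 355, 123, 22.7 and 144 TPM in control replicates 1 to 6 and at 162, 229, 1242, 401, 1397 and 633 TPM in knockout replicates 1 to 6. All 6 knockout lungs lay above the control median of 148 TPM and 3 lay above every control lung. The log2 fold change was 1.76 (SE 0.70, limma p = 0.0253, adjusted p = 0.349, exact permutation p = 0.0519, n = 6), and 2.32 without both lungs that stood apart (adjusted p = 0.0426). The transcript of Chil3 matched that of its neighbour in sequence, Chil4, at 94.3% of its bases, and 18.5% of its stretches of 50 bases were shared, so that reads could be divided between them. Chil4 was at most 1.67 TPM in every lung. Retnla shared 0 such stretches with Retnlb or Retnlg.

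The 3 macrophage genes tended to be high in the same lungs. Over 12 lungs, log2(TPM + 1) of Arg1 and Chil3 had a Pearson's r of 0.79 (permutation p = 0.00105, Benjamini-Hochberg over 6 pairs 0.00315) and a Spearman's rho of 0.83 (permutation p = 0.00137, adjusted 0.00411). For Arg1 and Retnla, r was 0.77 (permutation p = 0.00184, adjusted 0.00368) and rho 0.85 (permutation p = 6.90e-04, adjusted 0.00411). For Chil3 and Retnla, r was 0.82 (permutation p = 5.20e-04, adjusted 0.00312) and rho 0.78 (permutation p = 0.00428, adjusted 0.00856). These pooled values hold the difference between genotypes as well as the spread within them. Without the 2 lungs farthest from the median of the gene on the x axis, r was 0.71, 0.73 and 0.69. Within genotypes r stayed positive, at 0.60, 0.63 and 0.85 in control lungs and at 0.78, 0.80 and 0.50 in knockout lungs, where the exact pairings test gave a p of at most 0.05 only for Chil3 and Retnla in control lungs (p = 0.0153, n = 6). The ratio of Retnla to Chil3 in a lung did not differ detectably between genotypes (log2 difference 0.30, exact permutation p = 0.634, n = 6).

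Markers of recruited myeloid cells were also higher on average in knockout lungs, as the plot of marker lists shows. All 10 monocyte and interstitial macrophage markers had higher means in knockout lungs, 9 with an unadjusted limma p of at most 0.05 (C1qa, C1qb, C1qc, Adgre1, Csf1r, Ccr2, Ly6c2, Ms4a7 and Fcgr1), and their sum ranged from 183 to 2492 TPM in control and from 430 to 3298 TPM in knockout lungs. All 7 neutrophil markers had higher means, each with such a p (S100a8, S100a9, Cxcr2, Ly6g, Mmp8, Retnlg and Csf3r), with sums of 276 to 2479 and of 1041 to 7527 TPM. Of these markers 0 were called over all lungs. Without the lungs that stood apart 9 of 10 and 7 of 7 were called, where 9.69% of all genes tested were. The sums of these same lists had set those lungs apart, so that the second counts follow in part by construction. Ly6c2 (log2 fold change 1.90, limma adjusted p = 0.367) and S100a9 (1.87, adjusted p = 0.214) had the highest mean TPM of these lists. The 8 alveolar macrophage markers had sums of 319 to 734 and of 299 to 672 TPM. Of these, 7 were higher and 1 was lower by log2 fold change, and Ear1 (log2 fold change 0.98, limma adjusted p = 0.381) was the 1 gene with an unadjusted p of at most 0.05. The lower gene was Car4, with the highest mean TPM of the list and also made by lung capillary endothelium (-0.81, limma adjusted p = 0.444). Without the lungs that stood apart, 1 of the 8 was called higher (Marco, 2.39, limma adjusted p = 0.00732) and 1 lower (Car4, -1.33, adjusted p = 0.0191). The part of these cells in the values of Arg1, Chil3 and Retnla was not tested.

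**Figure D2:**
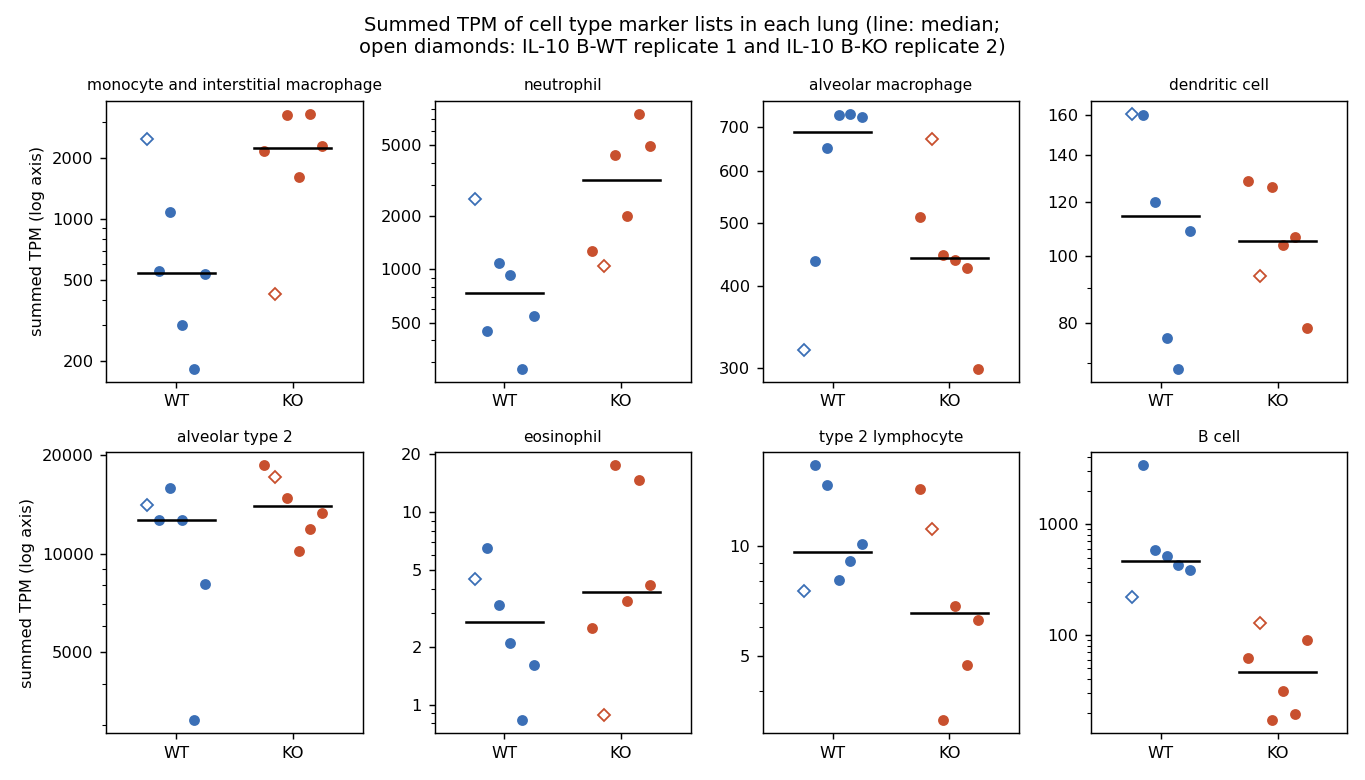
Summed TPM (log axis) of 8 lists of cell type markers in each lung, control (IL-10 B-WT) in blue and knockout (IL-10 B-KO) in orange, with the line at the median of 6 lungs and open diamonds for control replicate 1 and knockout replicate 2. The diamonds lie across from their genotype for the monocyte and interstitial macrophage list (2492 and 430 TPM) and with it for the B cell list (219 and 128 TPM).

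Arginine is used by arginase 1 and by inducible nitric oxide synthase (Nos2), the enzyme that marks classically activated macrophages. The level of Arg1 was therefore set beside that of Nos2 in each lung, a ratio chosen after the values were seen. Arg1 was below Nos2 in 5 of 6 control lungs and above it in 5 of 6 knockout lungs. The ratio of Arg1 to Nos2 was between 0.176 and 1.43 (median 0.439) in control and between 0.210 and 44.2 (median 3.54) in knockout lungs. Control replicate 1, which had the most Nos2 of any lung (128 TPM), also had the highest ratio of its genotype, and knockout replicate 2 had 2.95 TPM of Nos2 and the lowest ratio of its own. The log2 difference between genotypes was 3.22 (exact permutation p = 0.0195, n = 6), and 4.42 without these lungs (exact permutation p = 0.00794, n = 5, the smallest this design gives). These lungs had been picked because they lay against their group, so that the second p is a description and no independent evidence. Nos2 itself had a log2 fold change of 1.32 (limma adjusted p = 0.525).

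**Figure D3:**
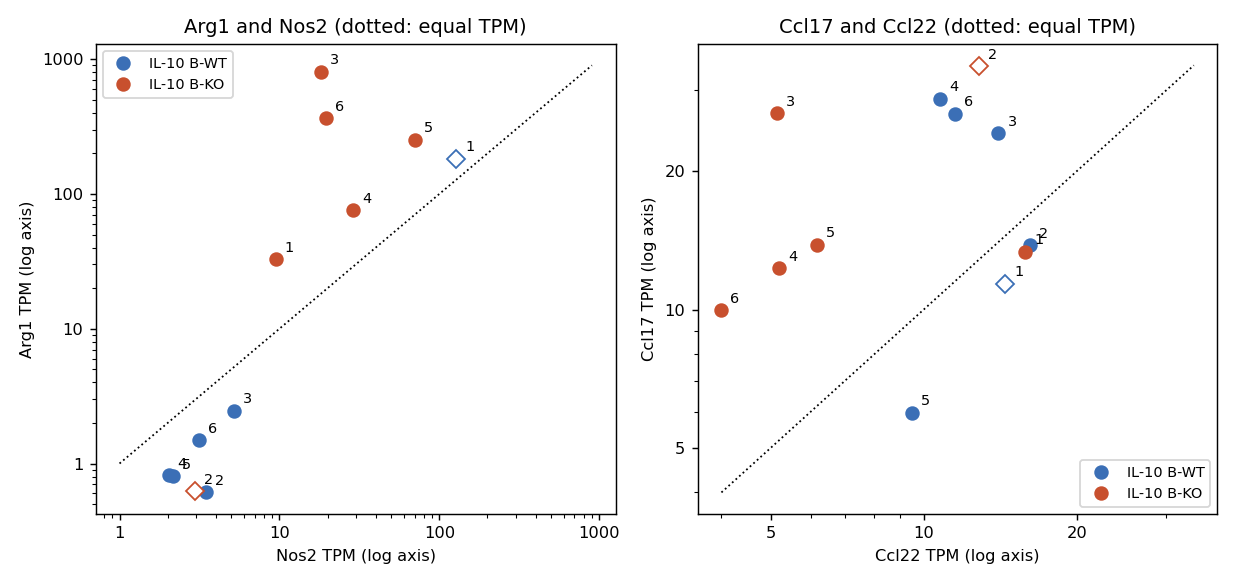
TPM of Arg1 against Nos2 (left) and of Ccl17 against Ccl22 (right) in each lung, on log axes, with replicate numbers, a dotted line of equal TPM and open diamonds for control replicate 1 and knockout replicate 2. Arg1 lies above the line in 5 of 6 knockout lungs and below it in 5 of 6 control lungs, and Ccl22 is at or below 6.17 TPM in 4 knockout lungs over a range of Ccl17 like that of the other lungs.

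The 10 other genes of arginine metabolism were higher on average and did not pass the test. All 10 had a positive log2 fold change (median 0.40, against 0.10 for all genes), and 0 were called. The smallest was that of the arginine transporter Slc7a1 (0.03), whose mean TPM was lower in knockout lungs. Arg2, the mitochondrial arginase, had the lowest p. It was between 0.98 and 33.6 TPM (median 4.42) in control and between 7.74 and 27.0 TPM (median 19.5) in knockout lungs, with a log2 fold change of 1.58 (limma adjusted p = 0.297), and its highest value was that of control replicate 1. Oat, which converts the ornithine made by arginase toward proline, had the highest mean TPM of the list (medians 71.1 and 76.5 TPM, log2 fold change 0.23, adjusted p = 0.664). Without the lungs that stood apart, 4 of the 10 were called, all higher (Arg2, Nos2, Ass1 and Slc7a2), where 9.69% of all genes tested were called. This count too may follow in part from how those lungs were picked.

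The ligands of Ccr4 were unlike the macrophage genes. Ccl22 (ENSMUSG00000031779, chromosome 8, 94745590 to 94751699, plus strand) encodes a chemokine made by dendritic cells and macrophages. It was at 14.5, 16.2, 14.0, 10.8, 9.5 and 11.5 TPM in control replicates 1 to 6 and at 15.8, 12.9, 5.15, 5.20, 6.17 and 4.0 TPM in knockout replicates 1 to 6. The control lungs spanned a 1.70-fold range, the narrowest of the 10 genes, and the knockout lungs fell into 4 below every control lung and 2 among them. The log2 fold change was -0.71 (SE 0.29, limma p = 0.0286, adjusted p = 0.353, exact permutation p = 0.0498, n = 6). It stayed between -0.92 and -0.57 with each lung left out in turn, and was -0.82 (adjusted p = 0.0858) without both lungs that stood apart.

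Ccl17 (ENSMUSG00000031780, chromosome 8, 94810453 to 94812036, plus strand) lies on the same strand 58753 bases from Ccl22, with 2 annotated genes between. It was at 11.4, 13.8, 24.2, 28.8, 5.97 and 26.7 TPM in control replicates 1 to 6 and at 13.4, 33.8, 26.7, 12.3, 13.8 and 9.96 TPM in knockout replicates 1 to 6. The genotypes covered nearly the same range, with means of 18.5 ± 9.32 and 18.3 ± 9.60 TPM (SD, n = 6 each) and a log2 difference of 0.03 (SE 0.39, limma adjusted p = 0.979, exact permutation p = 0.924). Its sign turned with the scaling and with control replicates 1, 2 or 5 or knockout replicates 2 or 3 left out (from -0.23 to 0.19 over all single lungs), and without both lungs that stood apart it was -0.26 (adjusted p = 0.681). Ccl17 and Ccl22 did not vary together detectably over the 12 lungs (r = 0.19, permutation p = 0.541, rho = 0.10, permutation p = 0.766, adjusted 0.541 and 0.766 over 6 pairs), with an r of 0.17 without the 2 outermost lungs and of 0.14 and 0.37 within control and knockout lungs. The ratio of Ccl17 to Ccl22 had a median of 1.29 in control and 2.43 in knockout lungs (log2 difference 0.85, exact permutation p = 0.110, n = 6).

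The 8 dendritic cell markers, set beside these ligands, had sums of 68.7 to 161 TPM in control and of 78.7 to 129 TPM in knockout lungs. Of the 7 tested, 3 were higher and 4 lower, and Cd209a, a lectin of monocyte-derived and type 2 conventional dendritic cells, had the only unadjusted p of at most 0.05 (log2 fold change -1.39, limma adjusted p = 0.279). It was also called, as lower, without the lungs that stood apart (-1.93, adjusted p = 0.00475). The part of dendritic cells in the values of Ccl22 was not tested. Fscn1, with the highest mean TPM of the tested dendritic cell genes, had a log2 fold change of 0.19 (limma adjusted p = 0.836).

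The eotaxins were low in both genotypes. Ccl11 (ENSMUSG00000020676, chromosome 11, 82057823 to 82062955, plus strand), eotaxin-1, was at 5.01, 7.0, 1.28, 10.9, 5.24 and 3.99 TPM in control replicates 1 to 6 and at 4.0, 2.13, 3.35, 7.54, 7.54 and 1.34 TPM in knockout replicates 1 to 6. The genotypes overlapped over nearly their whole range (log2 fold change -0.30, SE 0.40, limma adjusted p = 0.751, exact permutation p = 0.513, n = 6), also without the lungs that stood apart (-0.17, adjusted p = 0.822). Ccl24 (ENSMUSG00000004814, chromosome 5, 135569937 to 135573049, minus strand), eotaxin-2, was at 1.00, 0.05, 0.19, 4.44, 0.82 and 0.16 TPM in control replicates 1 to 6 and at 0.05, 2.28, 0.94, 0.50, 1.32 and 0.70 TPM in knockout replicates 1 to 6. Ccl24 reached 1 TPM in only 4 lungs and was not among the genes tested, and the exact permutation test did not separate the genotypes (p = 0.877, n = 6). Over the 12 lungs Ccl11 and Ccl24 did not vary together detectably (r = 0.30, permutation p = 0.349, rho = 0.22, permutation p = 0.477, adjusted 0.418 and 0.572, r = 0.20 without the 2 outermost lungs), with an r of 0.64 in control and -0.20 in knockout lungs.

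The cells that eotaxins attract left little trace in these libraries. Epx, the peroxidase that defines eosinophils, was at most 0.05 TPM in every lung, and their receptor Ccr3 at most 0.21 TPM. The 5 eosinophil markers summed to between 0.83 and 6.54 TPM in control and between 0.88 and 17.6 TPM in knockout lungs. Of the 5, Ear6 alone was tested, with up to 4.07 TPM in control and up to 16.6 TPM in knockout lungs (log2 fold change 1.84, limma adjusted p = 0.256). Ear6 belongs to a family of closely related ribonucleases, so that its reads may be shared with other members. Prg2, which encodes major basic protein, and Il5ra, the receptor for IL-5, went the other way. Prg2 was between 0.28 and 4.78 TPM in control and between 0 and 0.75 TPM in knockout lungs, and Il5ra between 0.08 and 1.42 TPM and between 0.03 and 0.14 TPM, with 5 knockout lungs below every control lung for each, and neither difference was tested.

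**Figure D4:**
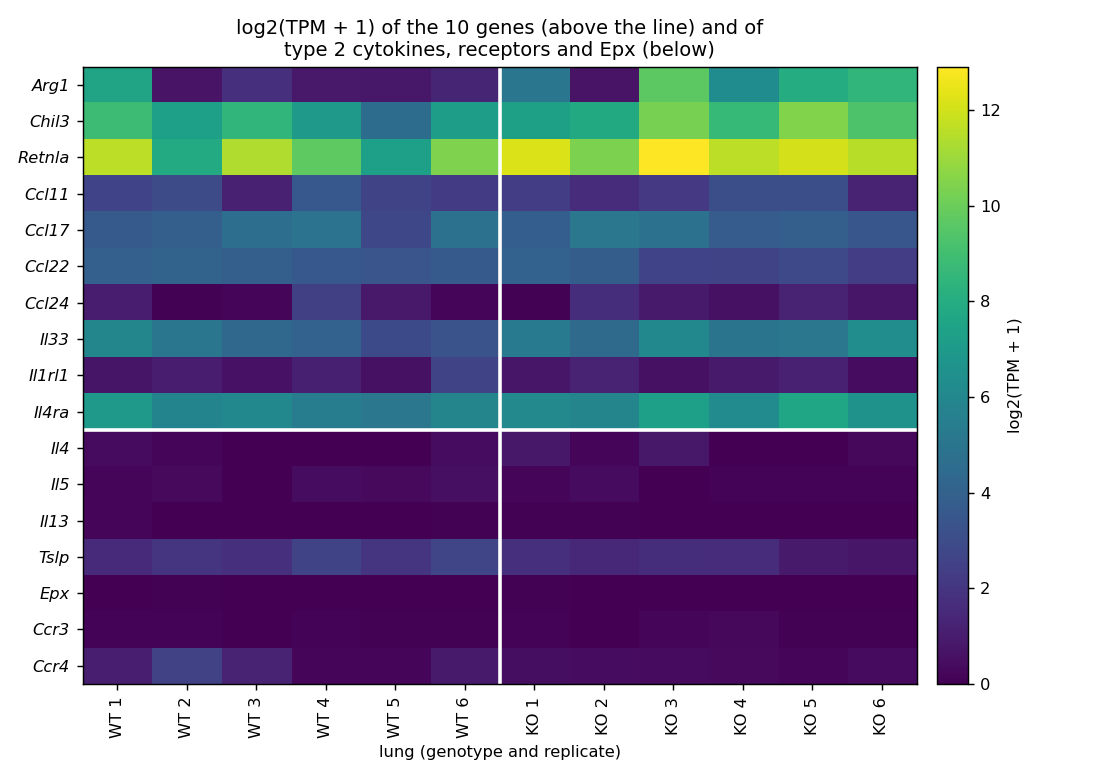
Levels as log2(TPM + 1) of the 10 genes (above the white line) and of Il4, Il5, Il13, Tslp, Epx, Ccr3 and Ccr4 (below it) in each of the 6 control and 6 knockout lungs. Retnla is the brightest gene in every lung, Arg1 switches between dark and bright lungs, and Il4, Il5, Il13, Epx and Ccr3 stay dark in all 12 (at most 0.80 TPM).

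Il33 (ENSMUSG00000024810, chromosome 19, 29925114 to 29960718, plus strand) was higher on average in knockout lungs. It was at 60.5, 32.6, 19.3, 15.5, 6.38 and 8.72 TPM in control replicates 1 to 6 and at 38.3, 21.3, 64.4, 30.3, 34.2 and 79.9 TPM in knockout replicates 1 to 6. Every knockout lung was above the control median of 17.4 TPM and 2 were above every control lung. The log2 fold change was 1.11 (SE 0.48, limma p = 0.0362, adjusted p = 0.375, exact permutation p = 0.0649, n = 6), and 1.63 (adjusted p = 0.0181) without both lungs that stood apart. IL-33 is made in the mouse lung largely by alveolar type 2 cells, whose 6 markers all had higher means in knockout lungs, 3 of them with an unadjusted limma p of at most 0.05, namely Sftpb (0.74), Lamp3 (1.27) and Slc34a2 (0.96). Their sum, most of it Sftpc, was between 3105 and 15902 TPM in control and between 10174 and 18614 TPM in knockout lungs. Both Il33 and the sum were lowest in control replicate 5. That lung had the fewest genes above 0 TPM (21380) and was also the lowest for Chil3, Retnla, Ccl17 and Il4ra, so that this shared low is not particular to Il33 and these markers. The part of alveolar type 2 cells in the values of Il33 was not tested.

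Its receptor Il1rl1 (ENSMUSG00000026069, chromosome 1, 40429570 to 40465415, plus strand) was at 0.66, 1.03, 0.54, 1.19, 0.47 and 5.19 TPM in control replicates 1 to 6 and at 0.70, 1.4, 0.50, 0.89, 1.24 and 0.36 TPM in knockout replicates 1 to 6. It reached 1 TPM in 5 lungs and was not among the genes tested (exact permutation p = 0.593, n = 6). Control replicate 6 was well above the other 11 lungs, which lay at or below 1.4 TPM. Over the 12 lungs Il33 and Il1rl1 had an r of -0.49 (permutation p = 0.106, adjusted 0.158) and a rho of -0.39 (permutation p = 0.213, adjusted 0.320), with an r of -0.67 without the 2 outermost lungs. The r was -0.34 in control lungs (exact pairings test, p = 0.529, n = 6) and -0.93 in knockout lungs (exact pairings test, p = 0.0111, n = 6), at levels of Il1rl1 near 1 TPM, and the difference between these was not tested.

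Il4ra (ENSMUSG00000030748, chromosome 7, 125552120 to 125579474, plus strand) was present at 33.5 TPM or more in every lung. It was at 121, 55.0, 65.2, 43.2, 33.5 and 58.7 TPM in control replicates 1 to 6 and at 66.3, 56.7, 157, 73.5, 189 and 98.1 TPM in knockout replicates 1 to 6. In knockout lungs, 5 of 6 lay above the control median of 56.9 TPM. The log2 fold change was 0.73 (SE 0.34, limma p = 0.0518, adjusted p = 0.402, exact permutation p = 0.0844, n = 6), and 1.09 (adjusted p = 0.0287) without both lungs that stood apart. The 5 remaining knockout lungs (lowest 66.3 TPM) then lay just above the 5 remaining control lungs (highest 65.2 TPM), and the share of all genes that did so was not counted.

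**Figure D5:**
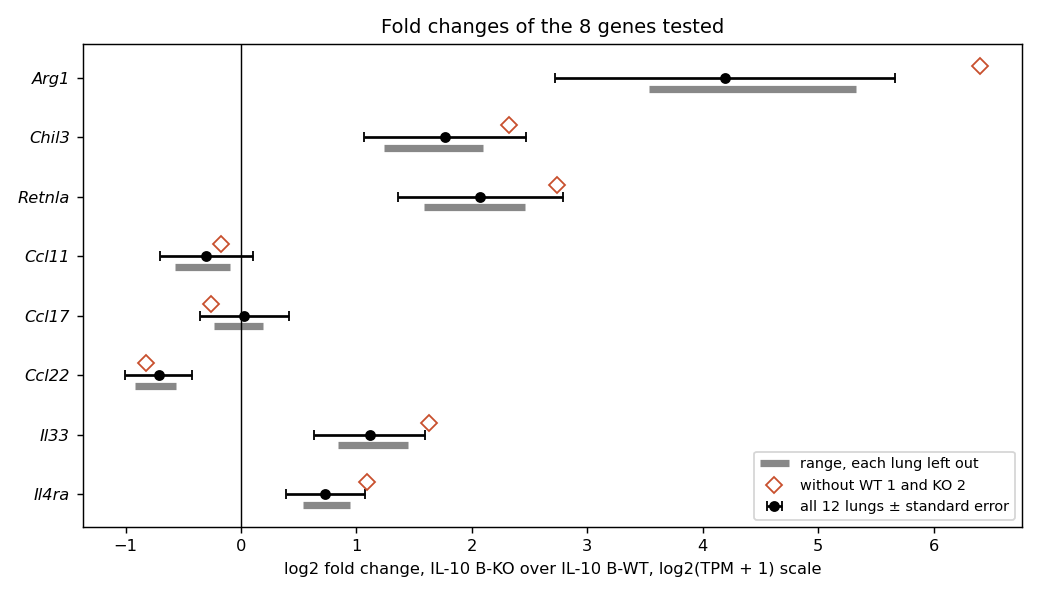
Log2 fold changes (knockout over control, log2(TPM + 1) scale) of the 8 genes tested, with black points and standard errors over all 12 lungs, grey bars for the range with each lung left out in turn, and open diamonds without control replicate 1 and knockout replicate 2. Arg1 lies between 3.54 and 5.33 under the grey bar and at 6.40 without both lungs, and Ccl17 is the gene whose grey bar crosses 0.

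The cytokines that drive this program were near or at 0 TPM. Il9 and Il25 were listed at 0 in all 12 lungs, Il13 was at most 0.18 TPM, Il5 at most 0.45 TPM and Il4 at most 0.80 TPM. Of the 6 genes of this list, Tslp, an epithelial alarmin, was the 1 gene tested. It was between 2.02 and 5.44 TPM (median 2.88) in control and between 0.73 and 2.30 TPM (median 1.94) in knockout lungs, with a log2 fold change of -0.72 (limma adjusted p = 0.298). Among 8 markers of type 2 lymphocytes, 3 were tested, of which 1 was higher and 2 lower, and Gata3, their defining transcription factor, had a log2 fold change of -0.81 (limma adjusted p = 0.238). Gata3 was the only one of them called, as lower, without the lungs that stood apart (-1.10, adjusted p = 0.00466).

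Of 11 other receptors of type 2 immunity, 5 were tested, all with higher means (median log2 fold change 0.35), and 0 were called. Il13ra1, which pairs with Il4ra to bind IL-4 and IL-13, was between 9.40 and 38.3 TPM (median 13.9) in control and between 16.2 and 47.0 TPM (median 23.8) in knockout lungs (log2 fold change 0.73, limma adjusted p = 0.381). It was called without the lungs that stood apart (1.12, adjusted p = 0.0138). Il2rg, the chain common to several cytokine receptors, had the highest mean TPM (medians 104 and 142 TPM, log2 fold change 0.30, adjusted p = 0.625).

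All 12 genes of STAT6 signaling and its regulators were tested, 7 higher and 5 lower, with a median log2 fold change of 0.13 and 0 called. Those with an unadjusted p of at most 0.05 were all lower in knockout lungs, while without the lungs that stood apart 1 gene was called higher (Socs1, a feedback inhibitor of cytokine signaling, 1.95, limma adjusted p = 0.0295) and 1 lower (Gata3). They were Gata3, Klf4 (-0.69, limma adjusted p = 0.164), a transcription factor that acts with STAT6 in macrophages and is also made by endothelium, and Irf4 (-1.14, limma adjusted p = 0.341), which macrophages, dendritic cells and plasma cells use. Irf4 was at least 1.71 TPM in control and at most 1.69 TPM in knockout lungs, and was highest in control replicate 2 (22.8 TPM), where Cd79a of B cells was also highest (259 TPM). Klf4 had the highest mean TPM of the list. The 5 endothelial markers, of which Egfl7 had the highest mean TPM (-0.20, limma adjusted p = 0.749), were all lower on average as well, 0 with an unadjusted p of at most 0.05, and the part of endothelium in the values of Klf4 was not tested. Stat6 itself was between 29.5 and 97.6 TPM in control and between 57.3 and 84.1 TPM in knockout lungs (0.25, adjusted p = 0.647).

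Of 14 other genes of alternative macrophage activation, 11 were tested, 10 higher and 1 lower, with a median log2 fold change of 0.67 and 0 called. F13a1, the coagulation factor XIII A chain of monocytes and resident macrophages, was at 22.1, 5.03, 7.28, 7.50, 5.12 and 3.91 TPM in control replicates 1 to 6 and at 20.3, 5.5, 130.1, 27.2, 49.6 and 83.7 TPM in knockout replicates 1 to 6. Its high and low lungs were nearly those of Arg1 (log2 fold change 2.14, limma adjusted p = 0.199). The chemokine Ccl7 (1.86, limma adjusted p = 0.393) and the inhibitory receptor Cd200r1 (0.88, limma adjusted p = 0.378) were also higher on average, while the lectin Mgl2, of macrophages and type 2 conventional dendritic cells, was lower (-1.08, limma adjusted p = 0.373). Tgm2, a transglutaminase and the gene of the list with the highest mean TPM, had a log2 fold change of 0.67 (adjusted p = 0.499), and Mrc1, which encodes the mannose receptor, of 0.26 (adjusted p = 0.664). Without the lungs that stood apart, 6 were called higher and 1 lower (Mgl2, -1.65, adjusted p = 0.00475), where 9.69% of all genes tested were called. Those lungs were picked by sums of myeloid markers, so that these counts follow in part by construction.

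Of 8 genes that airway epithelium is known to induce under IL-13, 4 were tested, 2 higher and 2 lower on average, and 0 were called. Clca1 and Muc5ac, which mark mucus-making goblet cells, were at most 6.97 and 2.39 TPM and were not among those tested. Areg, the growth factor amphiregulin, had a log2 fold change of 1.36 (limma adjusted p = 0.195). Postn, which encodes the matrix protein periostin and had the highest mean TPM of the list, had a log2 fold change of -1.38 (limma adjusted p = 0.0961), with 137 to 322 TPM in control and 34.1 to 181 TPM in knockout lungs. Periostin is also made by fibroblasts and mesenchymal cells, of whose 8 markers 3 were higher and 5 lower, with Npnt (-0.84), Tcf21 (-0.92) and Inmt (-1.78) at an unadjusted p of at most 0.05, and the part of these cells was not tested. The 3 club cell markers, of which Scgb1a1 had the highest mean TPM (-1.12, limma adjusted p = 0.434), were all lower on average, 0 with such a p. Their sums ranged from 23102 to 98535 TPM in control and from 8259 to 104532 TPM in knockout lungs, with the highest in knockout replicate 2. Of mast cell and basophil genes, which respond to IL-33, 2 of 6 were tested and Cpa3 had a log2 fold change of -1.01 (limma adjusted p = 0.0961) and Cma1, with the highest mean TPM, of -0.26 (adjusted p = 0.760). Without the lungs that stood apart, Areg (1.67, limma adjusted p = 0.0131) and the fibroblast marker Col1a1 (1.83, adjusted p = 0.0192) were called higher. Postn (-1.44, adjusted p = 0.0218), Inmt (-2.49, adjusted p = 0.00415), Scgb1a1 (-1.75, adjusted p = 0.0206), the club cell marker Cyp2f2 (-2.18, adjusted p = 0.0111) and Cpa3 (-1.03, adjusted p = 0.0254) were called lower.

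After each genotype's mean was taken away, the genes whose log2(TPM + 1) followed that of Arg1 most closely over the 12 lungs were Sgk1 (r = 0.98), Slc7a8 (0.98) and Tnfrsf23 (0.98). The nearest gene was Bnip2 for Chil3 (0.97), Mtres1 for Retnla (0.95), Gnai3 for Il4ra (0.98), Aldoc for Il33 (0.95) and Caml for Ccl17 (0.96). Ccl22 was nearest to the pseudogene Btf3-ps18 (0.93) and Ccl11 to Mylk3 (0.90). These values are the highest of 15148 comparisons over 12 lungs and are a description of likeness only.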

How the data were processed

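Whole-lung RNA of 12 mice was analysed from 1 table. The values are TPM that the authors deposited for every gene and lung, made with RSEM. The submitters' processing notes also name fastp, HISAT and GRCm38.p5, with no versions. Depth per sample is unknown. Limma 3.58.1 in R 4.3.3 (lmFit, eBayes with trend) was fitted to log2(TPM + 1) with genotype only, over genes with at least 1 TPM in at least 6 libraries, with Benjamini-Hochberg adjustment over all of them. It was tested on simulated data. Members were also compared by two-sided exact permutation tests on mean log2(TPM + 1) (924 arrangements, smallest p 0.00216). Nothing states whether replicates were littermates or prepared together, and p-values measure the spread between these lungs.

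The members and lists were chosen with earlier results of these data known. Named genes were all members, those of each list with an unadjusted p of at most 0.05 or the highest mean TPM, and the genes most alike each member. Others were named after their values were seen, and 1 gene that met the rule is not reported here. Coordinates are from GENCODE release M21 (GRCm38). Transcript identity was calculated with edlib 1.3.9.post1, permutation tests in Python 3.11.15 and plots with matplotlib 3.10.9. Alternatives were another pseudocount, other filters, array quality weights, a replicate block, left-out lungs, and 3 other scalings (median centring, quantile normalization, or TPM recomputed without immunoglobulins).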

Additional observations from a re-analysis of the deposited data

Results flagged for a closer look

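In 2 of 20 groups of 6 lungs, 1 lung lay far from the others on the log2(TPM + 1) scale, where chance gives about 1 in 20 groups. Arg1 in control replicate 1 (183 TPM, the others at most 2.47 TPM) had a gap to its nearest neighbour of 0.838 of the group's range. Il1rl1 in control replicate 6 (5.19 TPM, the others at most 1.19 TPM) had a gap of 0.723 of the range.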

How the results depend on the processing

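Over all 12 lungs, 75 genes were called, and the number was 6 with no filter, 27 after rescaling without immunoglobulin genes, 39 with quantile normalization, 36 with median centring, 318 with array quality weights, 45 with the replicate block and 1430 without control replicate 1 and knockout replicate 2. Of the 10 genes, 1 (Arg1) was called with array quality weights (log2 fold change 4.93, adjusted p = 0.0333) and 5 without those 2 lungs. With each lung left out in turn, between 15 and 576 genes and between 0 and 1 of the 10 were called. Arg1 was called without control replicate 1 (576 genes, 344 higher), and between 15 and 44 genes were called without any of control replicates 3 to 6 or knockout replicates 1, 3, 5 and 6. Of the 10, between 2 and 6 passed an unadjusted p of 0.05, with 5 over all lungs (12.5% of all genes tested did so), 6 without control replicate 1 (25.1%) or knockout replicate 2 (18.7%), 2 without knockout replicate 3 (8.33%) and 3 without control replicate 5 or knockout replicates 5 or 6 (11.2%, 7.77% and 8.68%). With the replicate number as a block, 3 passed it (10.2%). Same-numbered lungs correlated between -0.29 and 0.05 after each genotype's mean was taken away, which cannot show whether they shared a litter or a preparation. Ccl17 turned from 0.03 to -0.023 without immunoglobulin genes, -0.065 with quantile normalization, -0.078 with median centring, -0.56 with array quality weights and -0.26 without the 2 lungs, and lay between -0.23 and 0.19 with each lung left out. Ccl11 turned to 0.054 with array quality weights. The causes were not tested. Arg1, Chil3, Retnla, Il33, Il4ra and Ccl22 kept their direction under every alternative. Median centring moved the median of all genes from 0.10 to -0.01. Ccl24 and Il1rl1, which the filter removed, had log2 fold changes of 0.08 and -0.26 with no filter. Depth is unknown, so that values near 0 TPM cannot be told from absence.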

Other observations

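Retnlb and Chil4, near relatives of Retnla and Chil3, were low and were also higher on average in knockout lungs. Too few lungs reached 1 TPM for them to be tested by limma, and they were picked here after their values were seen. Retnlb, which encodes resistin-like molecule beta of goblet and intestinal epithelium, was at 0.48, 0, 0.93, 0, 0 and 0.13 TPM in control replicates 1 to 6 and at 5.5, 0.34, 15.1, 2.35, 15.6 and 0.78 TPM in knockout replicates 1 to 6 (exact permutation p = 0.0108, n = 6). Unlike Arg1, Retnlb was low in control replicate 1. Chil4, the gene for Ym2, was between 0 and 0.22 TPM in control and between 0.10 and 1.67 TPM in knockout lungs (exact permutation p = 0.0130, n = 6), where reads shared with Chil3 cannot be told apart from its own. Retnlg, another relative of Retnla, made by neutrophils, was neither low nor outside the limma test, with between 27.5 and 123 TPM in control and between 64.8 and 785 TPM in knockout lungs (log2 fold change 2.09, limma adjusted p = 0.187).

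Ccr4, the receptor for Ccl17 and Ccl22, was between 0.18 and 4.84 TPM in control and between 0.19 and 0.41 TPM in knockout lungs. Ptgdr2, a prostaglandin receptor of type 2 lymphocytes, was between 0.44 and 1.19 TPM and between 0 and 0.48 TPM. Neither passed the filter on low TPM and these differences were not tested.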
